A study of Mus musculus with 115 samples.

Results

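The genes described are 36 of 37 listed immediate early response genes, chosen by name and found among the 23930 gene amplicons of a targeted mouse transcriptome panel; the remaining gene, Zfp36l1, was not matched. They were read in RNA of whole mouse hearts that had been injected at the pericardium with 2.5e+11 vector genomes (vg) of AAV2/9Des-Gfp, the control vector, or AAV2/9Des-Gfp-mAnt1, the Ant1 vector. The mice were C57BL/6JEiJ (wild type), C57BL/6JEiJ ANT1 -/- (knockout, lacking the heart isoform of the mitochondrial ADP/ATP carrier encoded by Slc25a4) or C57BL/6JEiJ ANT1 -/- ND6 P25L (knockout ND6, which also carries a variant of a mitochondrially encoded subunit of respiratory complex I). The control vector groups held 4 wild-type hearts (numbered 23, 24, 25 and 70 in the titles), 3 knockout hearts (35, 36, 38) and 3 knockout ND6 hearts (20, 21, 22). The Ant1 vector groups held 3 wild-type hearts (80, 81, 83), 4 knockout hearts (20, 21, 22, 27) and 3 knockout ND6 hearts (5, 8, 37). A number used in more than 1 group names different hearts. Knockout ND6 hearts 61 and 91 are labelled with the control vector but carry the title code of the Ant1 vector, and formed a seventh group that entered no comparison. By its label every heart compared had received a vector, so no heart labelled as uninjected stands beside them. The titles mark the control vector hearts NI and the Ant1 vector hearts IN, codes that the labels do not explain. The series spans 1, 3, 6, 9 and 12 months after injection, and the time, age and sex of a single heart are not stated in the labels.

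Immediate early genes are transcribed within minutes of a stimulus such as growth factors, stretch, calcium entry or stress, without new protein synthesis. Kinase cascades act on factors already bound at their promoters, chiefly serum response factor with its ternary complex partners at CArG boxes and CREB at cAMP response elements. Their products include transcription factors (the AP-1, EGR, NR4A and KLF families) and feedback inhibitors such as the DUSP phosphatases, which switch off MAP kinases, and ZFP36, which promotes decay of short-lived mRNAs. In the heart they are known to respond to mechanical load, adrenergic signals and injury.

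Each heart was sequenced as 2 to 8 libraries whose reads were summed, giving 16827518 to 54779297 counts per heart, and levels are given as CPM, counts scaled to the adjusted total of each heart. The panel reads 1 amplicon per gene, so levels of different genes are not comparable. Slc25a4 stood at 8464 to 11380 CPM in wild-type hearts and at most 2.03 CPM in the knockout and knockout ND6 control vector hearts. It reached 174 to 241 CPM in the 4 knockout Ant1 vector hearts, 169 and 151 in hearts 61 and 91, and 55.6, 66.7 and 0.732 in the knockout ND6 Ant1 vector hearts 37, 5 and 8. The level in the heart labelled 8 with the Ant1 vector lies within the range of the control vector hearts of both knockout genotypes, against its label. Wherever hearts are called given a vector below, this follows their labels. Control and Ant1 vector groups never shared a table of libraries, so vector and table cannot be told apart. The 8 cardiomyocyte markers listed summed to 66443 to 82230 CPM in every heart.

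RefSeq promoters (GRCm38.p6, the build of mm10) were matched for 29 of the 36 measured members. In the 250 bases before the start, searched on both strands, the full cAMP response element TGACGTCA was found in 3 of these 29 members (Btg2, Dusp1 and Maff), against 1.77% of 27025 genes. A CArG box (CC, 6 bases of A or T, GG) was found in 3 (Dusp5, Egr2 and Zfp36), against 1.62% of genes. The short core TGACG, which the full element contains, was found in 16, against 19.8% of genes. The AP-1 site, TGACTCA or TGAGTCA, was found only in Csrnp1 among the 29, against 5.16% of genes. Each of the following stretches is 250 bases, 5′ to 3′ towards the start, with the matched motif in capitals; Fos, Btg2, Dusp1 and Zfp36 are shown because they rose together in the comparisons below, and Dusp5 because it has 2 CArG boxes and did not pass the test in any comparison. Fos (chr12:85473640-85473889, plus strand) has short cores that begin 129 and 66 bases before the start. Btg2 (chr1:134079156-134079405, minus strand) and Dusp1 (chr17:26508473-26508722, minus strand) have the full element 166 and 143 bases before it. Zfp36 (chr7:28379229-28379478, minus strand) has its CArG box 58 bases, and Dusp5 (chr19:53528895-53529144, plus strand) its 2 boxes 82 and 72 bases, before the start.
Fos: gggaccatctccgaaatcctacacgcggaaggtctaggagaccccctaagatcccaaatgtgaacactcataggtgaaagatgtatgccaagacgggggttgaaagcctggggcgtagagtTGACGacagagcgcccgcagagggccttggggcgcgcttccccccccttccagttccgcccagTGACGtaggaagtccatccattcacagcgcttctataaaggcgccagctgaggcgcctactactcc
Btg2: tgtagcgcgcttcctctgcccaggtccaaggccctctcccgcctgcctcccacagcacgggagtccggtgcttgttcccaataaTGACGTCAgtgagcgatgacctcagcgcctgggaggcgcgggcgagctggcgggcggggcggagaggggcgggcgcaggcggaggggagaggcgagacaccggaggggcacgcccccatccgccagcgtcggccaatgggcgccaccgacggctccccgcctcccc
Dusp1: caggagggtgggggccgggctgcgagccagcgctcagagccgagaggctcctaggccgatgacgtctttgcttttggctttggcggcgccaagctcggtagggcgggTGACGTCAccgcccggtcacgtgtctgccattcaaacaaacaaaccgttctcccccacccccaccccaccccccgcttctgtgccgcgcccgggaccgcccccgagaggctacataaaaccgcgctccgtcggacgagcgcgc
Zfp36: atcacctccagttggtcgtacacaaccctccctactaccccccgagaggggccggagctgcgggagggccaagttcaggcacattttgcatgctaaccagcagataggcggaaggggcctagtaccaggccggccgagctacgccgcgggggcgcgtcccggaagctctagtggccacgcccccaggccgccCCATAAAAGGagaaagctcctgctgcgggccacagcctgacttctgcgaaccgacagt
Dusp5: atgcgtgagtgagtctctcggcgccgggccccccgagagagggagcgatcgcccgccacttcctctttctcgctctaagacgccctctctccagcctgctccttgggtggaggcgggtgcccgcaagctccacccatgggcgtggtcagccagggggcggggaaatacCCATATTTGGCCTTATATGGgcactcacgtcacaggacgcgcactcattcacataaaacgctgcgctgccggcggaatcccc
A match describes these letters only, and bases further upstream were not searched, so a member without a match may carry the motif there. No factor binding was measured.

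Many of the members, but not all, were highest in the knockout ND6 hearts labelled with the Ant1 vector, most often in heart 5. Of the 36 members, 20 stood above all 19 hearts outside this group in heart 5, 18 in heart 8 and 15 in heart 37. Heart 5 was the highest of all 22 hearts for 19 members and heart 37 for 4. The same counts were not made over all genes of the panel. They therefore do not show whether the members differ in this from other genes. Fos, Fosb, Junb, Egr2, Egr3, Nr4a1, Klf4, Csrnp1, Dusp6, Zfp36, Btg2 and Cyr61 stood above the other 19 in all 3 hearts, and Jun, Egr1, Nr4a2, Klf2, Dusp1 and Ier2 in hearts 5 and 8. Fosl2, Myc and Maff did so in heart 37 alone. Fosl1, Jund, Nr4a3, Klf6, Btg1, Ier5, Socs3 and Rhob were among those that did so in none of the 3, as the map of members by heart shows.

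**Figure D1:**
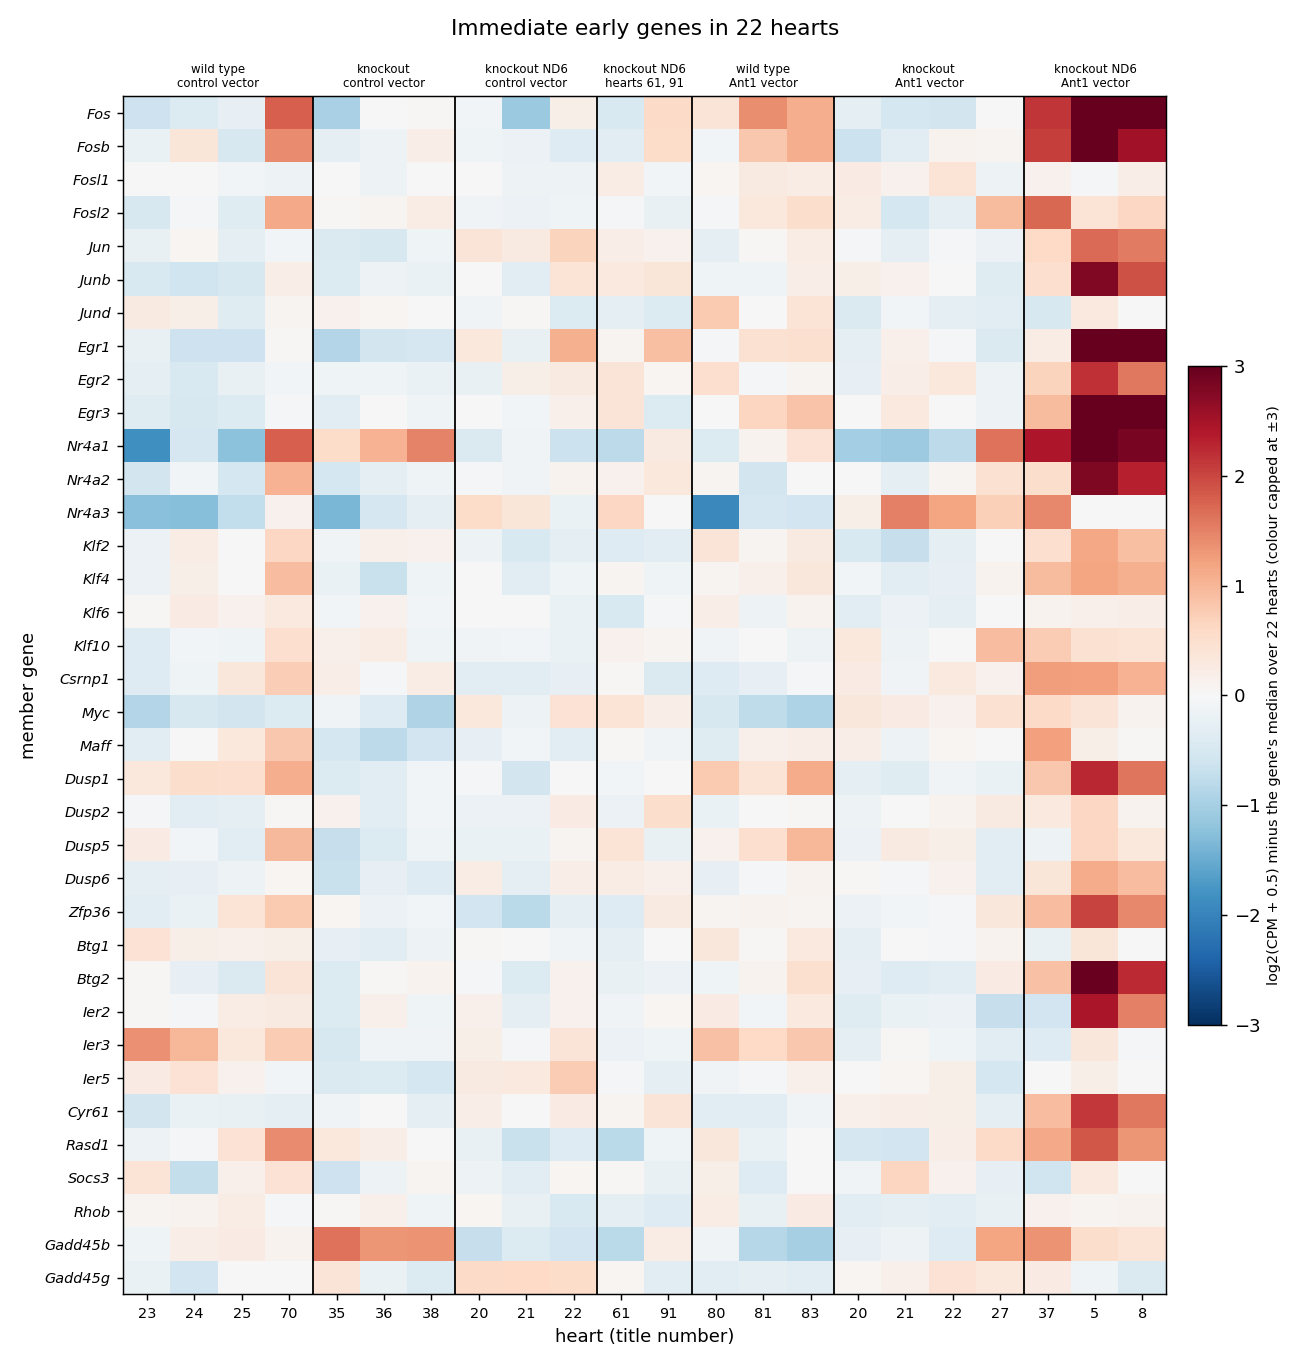
Levels of the 36 measured members (rows) in 22 hearts (columns, by title number and group), as log2(CPM + 0.5) minus the gene's median over hearts; red is higher and blue lower, with the colour capped at 3. The block of red in hearts 5 and 8 covers Fos, Fosb, Junb, Egr1 to Egr3, Nr4a1, Nr4a2, Dusp1, Btg2 and Ier2, and Gadd45b is red in the 3 knockout control vector hearts.

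Fos (chr12:85473890-85477274), which pairs with JUN proteins in the AP-1 factor, stood at 1.97, 2.38, 2.73 and 12.6 CPM in the wild-type control vector hearts 23, 24, 25 and 70, at 1.44, 3.31 and 3.4 in knockout hearts 35, 36 and 38, and at 3.11, 1.25 and 3.78 in knockout ND6 hearts 20, 21 and 22. With the Ant1 vector it stood at 4.47, 9.56 and 7.64 in wild-type hearts 80, 81 and 83, at 2.62, 2.16, 2.08 and 3.3 in knockout hearts 20, 21, 22 and 27, and at 112, 61 and 16.3 in knockout ND6 hearts 5, 8 and 37. All 3 knockout ND6 Ant1 vector hearts lay above every other heart, 5 and 8 by 8.87 and 4.83 times the highest of the rest, heart 37 by 1.29 times. The libraries of 1 heart agreed closely: those of heart 5 ranged from 108 to 121 CPM and those of heart 8 from 59.6 to 65.7.

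Egr1, a zinc finger transcription factor, stood at 26.9, 20.1, 20.1 and 31.9 CPM in wild-type, 16.8, 21.2 and 21.9 in knockout and 39.3, 27 and 66.2 in knockout ND6 control vector hearts. With the Ant1 vector it stood at 30.8, 42.9 and 43.6 in wild-type, 25.9, 34.8, 30.6 and 23.1 in knockout, and 807, 534 and 36.4 in knockout ND6 hearts 5, 8 and 37. Heart 37 lay within the range of the other groups for this gene, unlike hearts 5 and 8. Hearts 61 and 91, which carry Slc25a4 transcript and the control vector label, stood at 33 and 58.7.

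Junb is an AP-1 partner of Fos. With the control vector Junb stood at 30, 27.4, 29.8 and 47.9 CPM in wild-type, 31.3, 37.3 and 36 in knockout and 41.9, 33 and 55.6 in knockout ND6 hearts. With the Ant1 vector it stood at 37.8, 38.2 and 48.1 in wild-type hearts, at 47.4, 45.9, 41.5 and 32.1 in knockout hearts and at 287, 158 and 59.6 in knockout ND6 hearts 5, 8 and 37. Hearts 5 and 8 lay far above the rest and heart 37 just above the highest of them, 55.6. Jun, the name-giving AP-1 subunit, took smaller steps. Jun stood at 32.1, 38.7, 30.3 and 35.3 CPM in wild-type, 27.6, 26.8 and 33.9 in knockout and 49, 45 and 59.4 in knockout ND6 hearts given the control vector. Given the Ant1 vector, wild-type hearts stood at 30.6, 38.4 and 43.9, knockout hearts at 36, 30.5, 36.4 and 33.1 and knockout ND6 hearts 5, 8 and 37 at 122, 111 and 56.8. Heart 37 lay below control vector heart 22 of its genotype. Jund, constitutive in many cells, was at 1.03 to 3.18 CPM in all hearts, with no separation of knockout ND6 hearts 5, 8 and 37 (2.14, 1.65 and 1.03).

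Egr3, a relative of Egr1, was at most 4.07 CPM in the 19 hearts outside the group and at 40.9, 27.5 and 4.39 in hearts 5, 8 and 37. Nr4a2, an orphan nuclear receptor, was at most 3.09 outside and at 11.7, 8.3 and 2.01 inside, where heart 37 fell below wild-type heart 70. Klf2 is the flow-responsive factor of endothelium. With the control vector Klf2 stood at 175, 230, 197.5 and 301 CPM in wild-type, 183, 220 and 215 in knockout and 176, 142 and 163 in knockout ND6 hearts. With the Ant1 vector it stood at 257, 207 and 238 in wild-type hearts, at 144, 121, 159 and 196 in knockout hearts and at 439, 367 and 280 in knockout ND6 hearts 5, 8 and 37. Hearts 5 and 8 lay above all others and heart 37 below wild-type heart 70.

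Dusp1, a phosphatase of MAP kinases, is a feedback member. Dusp1 stood at 67, 77, 76.4 and 114 CPM in wild-type, 40.1, 42.1 and 50.5 in knockout and 52.5, 36.5 and 53.2 in knockout ND6 hearts given the control vector. Given the Ant1 vector, wild-type hearts stood at 92.7, 71.4 and 116.8, knockout hearts at 44.3, 41.3, 49.8 and 46.7 and knockout ND6 hearts 5, 8 and 37 at 260, 165.5 and 93.6. Heart 37 overlapped the wild-type but neither knockout group. Btg2, an antiproliferative factor that acts on mRNA deadenylation, stood at 272, 164 and 62.8 in hearts 5, 8 and 37 and at 25.2 to 47.7 in the other 19. Zfp36 stood at 124.6, 84 and 58 against 17.1 to 53.1, so all 3 hearts lay above the rest for both genes. Ier2, a nuclear immediate early protein, was at 85.6 and 44.6 in hearts 5 and 8, but at 10 in heart 37 and at 9.21 to 18.7 elsewhere.

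**Figure D2:**
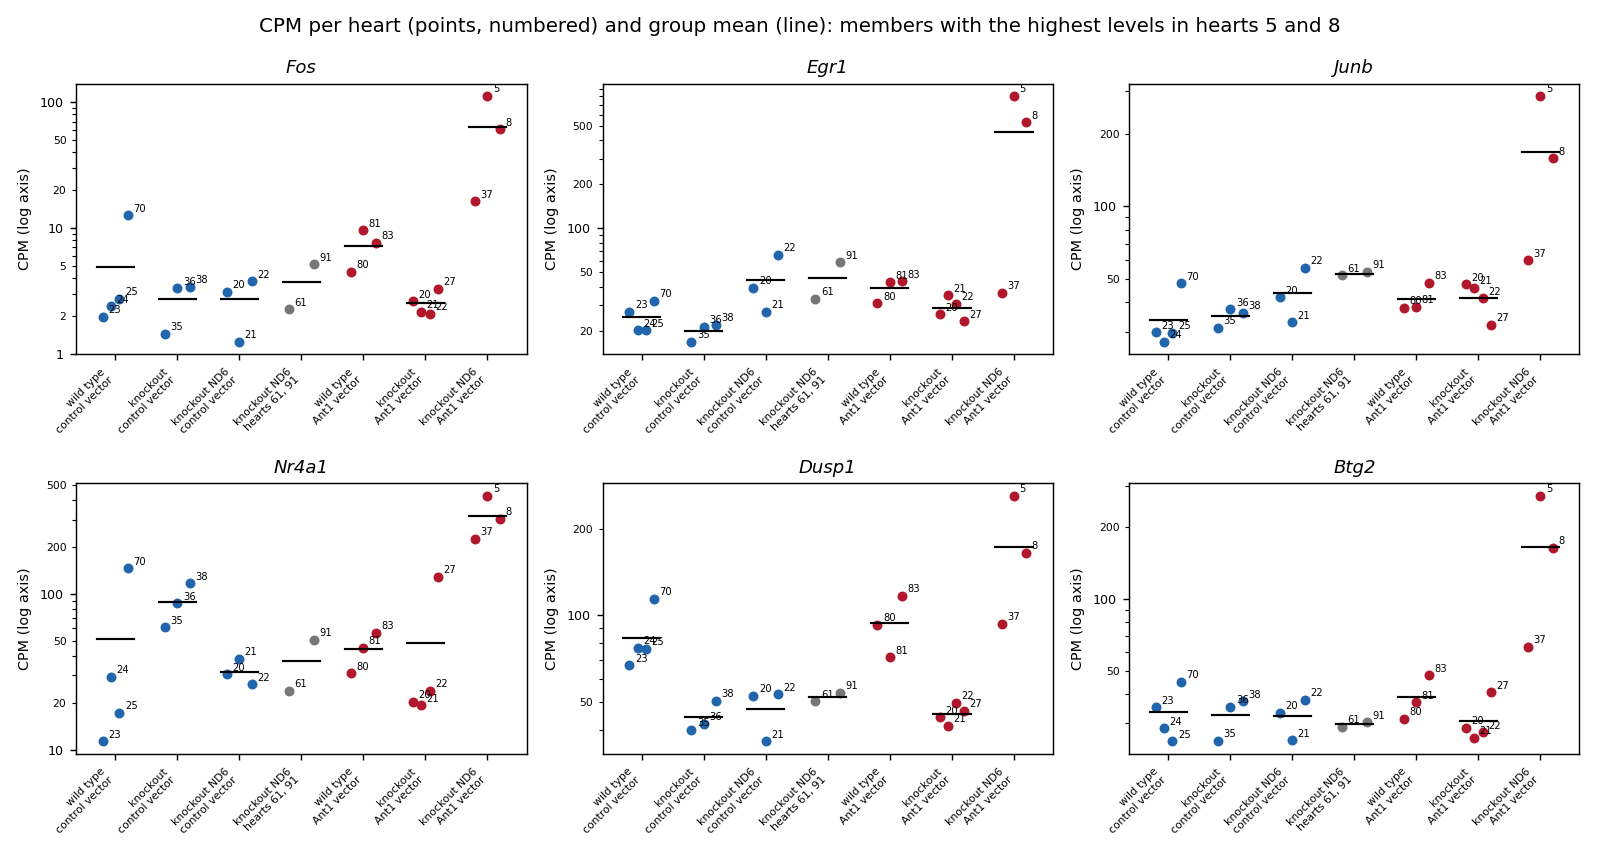
CPM of 6 members on log axes, 1 point per heart labelled with its title number, with the mean of each group as a line; blue is the control vector, red the Ant1 vector and grey hearts 61 and 91. Hearts 5 and 8 stand above all others in every panel, while heart 37 is above the rest for Fos, Junb, Nr4a1 and Btg2 but not for Egr1 or Dusp1.

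The Ant1 vector groups were compared with the control vector groups in each genotype. The groups differ in table as well as vector, and Slc25a4 in hearts 8, 61 and 91 goes against the labels, so a difference cannot be read as what delivery of Ant1 did. In knockout ND6 hearts 20 of the 35 members tested rose and 0 fell, at an adjusted p under 0.05 in edgeR's quasi-likelihood test with Benjamini-Hochberg adjustment over 15403 genes. Of all genes tested, 2.53% passed and 1.75% rose. The median log2 change was 1.26 over the tested members and 0.00 over all genes. The 20 were 4 AP-1 genes (Fos, Fosb, Jun, Junb), all 3 EGR genes, Nr4a1 and Nr4a2, Klf2 and Klf4, Csrnp1, Dusp1 and Dusp6, Zfp36 and Btg2, Ier2, Cyr61, Rasd1 and Gadd45b. Fosl1, at most 0.292 CPM, was not tested; with no low-count filter all 36 were, and 20 were again called.

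Fos rose 23.1-fold (log2 change 4.53 ± 0.69 SE, adjusted p = 0.000938), from 2.72 ± 1.31 CPM (SD, n = 3) to 63.1 ± 47.9 (n = 3). Egr1 rose 10.4-fold (3.38 ± 0.60, adjusted p = 0.00403) and Nr4a1, another orphan nuclear receptor, 10.04-fold (3.33 ± 0.79, adjusted p = 0.0284). Zfp36 had the smallest adjusted p of the members, 0.00033, with a 4.24-fold rise (2.08 ± 0.27). Btg2 rose 5.17-fold (2.37 ± 0.34) and Dusp1 3.65-fold (1.87 ± 0.26). The steps were smaller for Cyr61, a secreted matrix protein (1.48 ± 0.20), for Csrnp1, a nuclear factor (1.49 ± 0.20), for Klf2 (1.18 ± 0.19), and for Jun (0.91 ± 0.19). Cyr61 and Csrnp1 were raised in all 3 hearts: Cyr61 was at 301, 209 and 131 CPM in hearts 5, 8 and 37 against 79.1, 68.2 and 82.5 with the control vector, and Csrnp1 at 99.1, 86.8 and 100 against 33.1, 33.6 and 35.1.

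These calls rest on which hearts are counted. Without hearts 5 and 8, an alternative chosen after seeing the data that leaves heart 37 alone in its group and takes its spread from the other groups, 12 members were called, 10 of them among the 20. Fos kept a log2 change of 2.56 (adjusted p = 0.0379), Egr1 turned to -0.29 and Ier2 to -0.63, and Junb fell short at 0.44 (adjusted p = 0.351). Adding hearts 61 and 91 to the control vector group, as their label reads, gave 20 called members, all 20 shared with those above. Counted as Ant1 vector hearts, as their title code reads, they left 0 called. Under the latter count the log2 change of Fos was 3.84 with an adjusted p of 0.0908. With heart 8 left out 15 members were called, and 13 without control vector heart 20 or without heart 21.

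In wild-type hearts the vectors differed in 0 of 35 members by edgeR (0 by DESeq2, 4 at an unadjusted p under 0.05), where 0.117% of all genes passed. The 4 were Csrnp1 and Gadd45b, lower with log2 changes of -0.43 ± 0.19 and -0.76 ± 0.34, and Egr2 and Egr3, at 1.54 ± 0.66 and 1.09 ± 0.46. In knockout hearts 3 members passed, where 5.47% of all genes did: Myc and Nr4a3 rose and Gadd45b fell. Fos was at -0.07 ± 0.66 there and Egr1 at 0.51 ± 0.54, neither past the threshold. The count of 3 was 0 without control vector heart 36 or 38, 1 without control vector heart 35 or Ant1 vector heart 20, 21 or 22, and 5 without Ant1 vector heart 27. The plot of vector changes shows the 3 genotypes side by side.

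**Figure D3:**
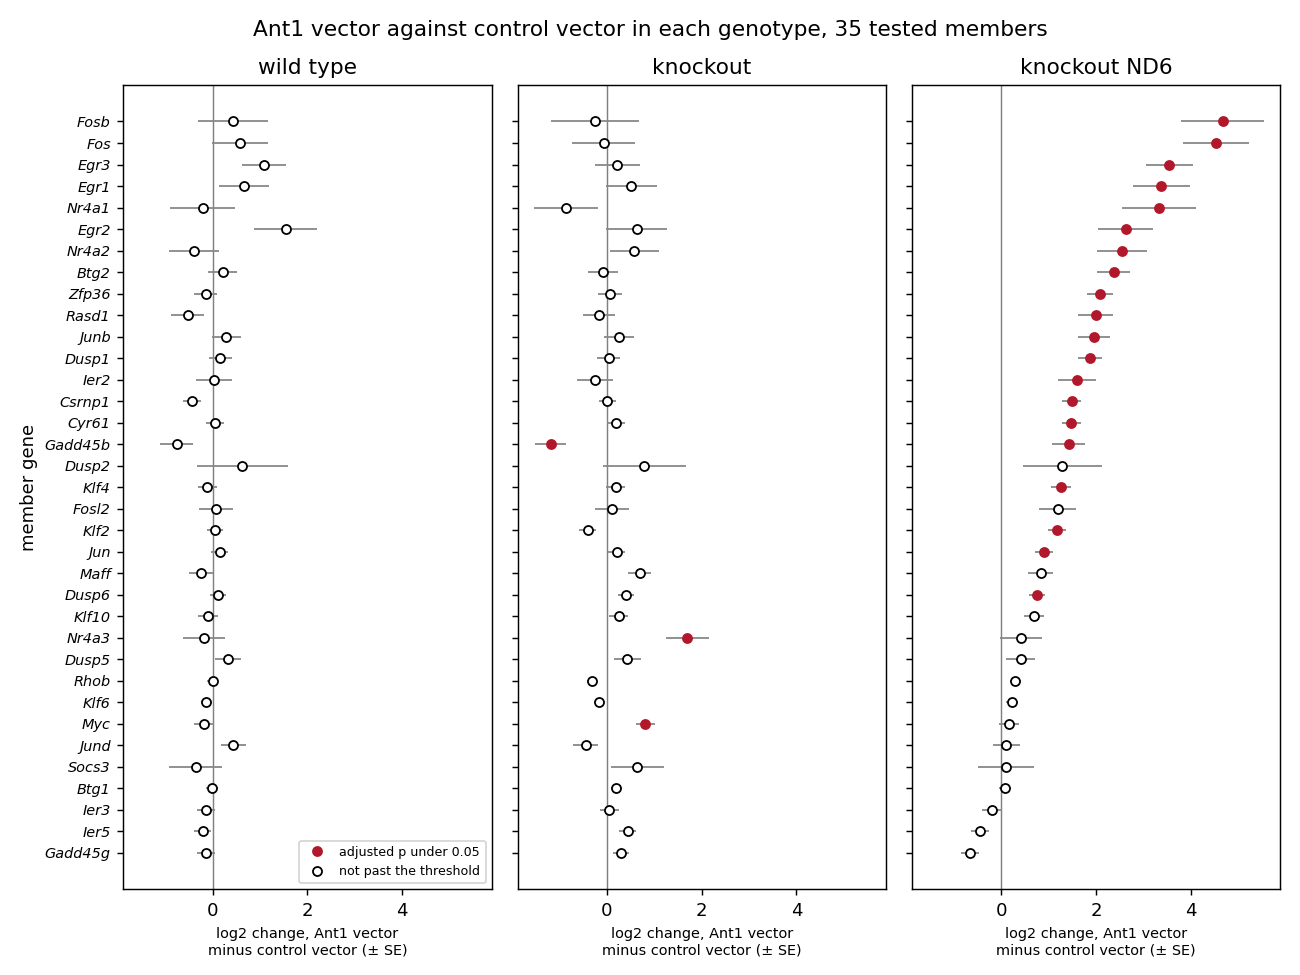
Log2 change of the 35 tested members, Ant1 vector minus control vector, in each genotype; points are estimates, bars 1 SE, filled points passed the adjusted threshold. Filled points number 0 in wild-type, 3 in knockout and 20 in knockout ND6 hearts.

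Whether the vector change itself differed between genotypes was tested as an interaction. Between knockout ND6 and wild-type hearts 7 of 35 members passed, all with a more positive vector change in knockout ND6 hearts, where 0.273% of all genes passed. They were Csrnp1 (difference of log2 changes 1.92 ± 0.27, adjusted p = 0.00284), Zfp36 (2.24 ± 0.37, adjusted p = 0.011), Cyr61 (1.42 ± 0.27), Rasd1, a small GTPase induced by glucocorticoids (2.52 ± 0.50), Dusp1 (1.70 ± 0.35), Klf4 (1.37 ± 0.29) and Btg2 (2.16 ± 0.46). The other 5 of these adjusted p lay between 0.0361 and 0.0483. Fos and Egr1 are not among them: in wild-type hearts their vector changes were 0.58 ± 0.59 and 0.67 ± 0.53, and the differences, 3.95 ± 0.89 and 2.71 ± 0.78, had adjusted p of 0.0692 and 0.173. Between knockout and wild-type hearts 0 of 35 passed by edgeR (1 by DESeq2, 6 at an unadjusted p under 0.05), where 0.5% of all genes passed. A fit of single libraries that also held the table of each called 4 members in this interaction and 20 in that of knockout ND6. Of the 20, 19 were positive and the 7 were included. That fit used 1 within-heart correlation for all genes, 0.176, so repeat libraries of a heart count in part as replicates. Its counts are not comparable with those of summed hearts, and the shares of all genes it called are not given. For knockout ND6 DESeq2 called 12, and 18 were called without hearts 27 and 37. The count of 7 was 15 without heart 37, 1 to 3 without any 1 of hearts 5, 8, control vector hearts 20, 21 and 22 of the knockout ND6 group or wild-type hearts 80, 81, 83, 24 and 25, and 0 with hearts 61 and 91 as Ant1 vector hearts.

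Among hearts given the Ant1 vector, knockout ND6 exceeded knockout in 19 of 35 tested members, with 0 lower, where 1.66% of all genes passed and 1.07% were higher. The median log2 difference was 1.04 over the members and 0.00 over all genes. Against wild type 23 members were higher and Ier3 lower, where 19.5% of all genes passed and 10.8% were higher, with a median of 1.35. The comparisons share the knockout ND6 Ant1 vector hearts, so their calls are not independent. The 19 members higher in the first were also higher in the second and in the vector comparison. Fos differed from knockout by 24.3-fold (log2 4.60 ± 0.61, adjusted p = 0.000243), Egr1 by 16.1-fold (4.01 ± 0.55), Egr3 by 11.6-fold (3.53 ± 0.44), Btg2 by 5.39-fold (2.43 ± 0.31) and Dusp1 by 3.8-fold (1.92 ± 0.24).

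This last genotype comparison can be made among hearts whose libraries share tables. Hearts 5 and 8 exceeded knockout hearts 21 and 22 of the same tables by log2 differences of 5.24 for Fos, 4.33 for Egr1, 4.06 for Nr4a1, 3.84 for Egr3, 2.98 for Btg2 and 2.19 for Dusp1, given as values with no test. Heart 37 exceeded knockout heart 27 of its tables by 2.28 for Fos, 2.89 for Fosb, 1.30 for Egr3, 1.00 for Dusp1, 0.66 for Egr1 and 0.12 for Ier2. Both pairs have the same direction, and the first is larger for each of these genes named in both. With the library table as a covariate, in the fit of single libraries, 25 members were called, 24 of them higher. This count is not comparable with the 19 of summed hearts. Without hearts 5 and 8, 2 members were called, 1 of them among the 19, and with hearts 61 and 91 as Ant1 vector hearts 4 (Fos, Egr1, Egr3 and Jun). In the comparison with wild type these counts were 11 and 14, and without hearts 5 and 8 Egr1 turned to -0.11 and Dusp1 to -0.01, neither past the threshold, while Ier2 turned to -0.77 and was called lower (adjusted p = 0.0369).

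Markers of other cells were read in the same hearts. The 10 endothelial markers listed summed to 1741, 1677 and 1587 CPM in knockout ND6 Ant1 vector hearts 5, 8 and 37, against 1358 to 1409 with the control vector in that genotype, 1368 to 1553 in the knockout and 1470 to 1680 in the wild-type Ant1 vector hearts. Of these 10 markers 3 rose in the knockout ND6 vector comparison, where 2.53% of all genes passed and 1.75% rose. Against wild-type Ant1 vector hearts 4 were higher and Emcn lower, where 19.5% of all genes passed. Against knockout Ant1 vector hearts only Esam passed, higher, where 1.66% of all genes passed. The same shares stand beside the calls of the other marker lists that follow. The 5 atrial markers summed to 1277, 4676 and 3779 CPM in hearts 5, 8 and 37, against 4204 to 6991 in the other 19, so hearts 5 and 37 were the lowest of all. Of these 5, Sln was lower than in knockout and Sln and Myl7 lower than in wild-type Ant1 vector hearts, and 0 passed in the vector comparison by edgeR. The 7 skeletal muscle markers summed to 22.3, 18.8 and 54.3 CPM in the same 3 hearts, against 13.4 to 28 elsewhere, with heart 37 the highest; Myh1 was higher than in knockout and Myh1, Tnnt3 and Mylpf higher than in wild-type Ant1 vector hearts. Among 6 adipocyte markers, whose sum of 671 to 858 CPM lay within that of the other hearts (642 to 1160), Lep was lower in all 3 comparisons and Adipoq lower than in knockout. The 7 neutrophil markers summed to 2.3 to 2.65 CPM in the 3 hearts and the 9 macrophage markers to 131 to 209, within the ranges of the other groups (1.13 to 9.34 and 120 to 229). Of these, S100a8, S100a9 and C1qb were lower than in wild-type Ant1 vector hearts. The 2 erythroid markers on the panel summed to 66.5, 73.6 and 176 CPM in hearts 5, 8 and 37, against 84.3 to 255 elsewhere, so hearts 5 and 8 were the lowest of all. The part of all these markers in the result was not tested. None of the listed markers on the panel was at 0 in every heart. In whole-heart RNA, fewer cells of a type and less RNA per cell cannot be told apart.

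Several members followed another order. Nr4a1 stood at 60.9, 86.8 and 116.7 CPM in the knockout control vector hearts, against 30.4, 38.4 and 26.3 in knockout ND6 control vector hearts and 11.3, 29.4 and 17.3 in wild-type hearts 23 to 25. It reached 146 in wild-type heart 70 and 129 in knockout Ant1 vector heart 27, whose group otherwise stood at 20.2, 19.3 and 23.9, and 427, 303 and 225 in knockout ND6 Ant1 vector hearts 5, 8 and 37. None of the 3 control vector comparisons of Nr4a1 passed the threshold: knockout ND6 lay below knockout by -1.48 ± 0.74 (adjusted p = 0.373), although these 2 groups did not overlap.

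Gadd45b, a stress-induced regulator of p38 and JNK signalling, separated the knockout control vector hearts from the control vector hearts of both other genotypes. It stood at 65.4, 53.1 and 53.7 CPM in hearts 35, 36 and 38, against 19, 23.8, 24.7 and 22.5 in wild-type and 12.7, 15.5 and 13.7 in knockout ND6 control vector hearts, with no overlap. Knockout exceeded wild type by 2.55-fold (log2 1.35 ± 0.32, adjusted p = 0.00623), and knockout ND6 lay 4.11-fold below knockout (-2.04 ± 0.36, adjusted p = 0.00575). Among hearts that share tables the differences were 1.55 (heart 35 against 23 to 25) and -1.93 (hearts 20 and 21 against 36 and 38). With the Ant1 vector, knockout hearts 20, 21 and 22 stood at 17.4, 18.7 and 15.8 and heart 27 at 47.7; the vector change was -1.19 ± 0.32 (adjusted p = 0.0327), and the call was lost in 6 of the 7 fits that left out 1 heart, all but that without heart 27, with adjusted p up to 0.0975. Its relative Gadd45g stood at 68.8, 69.4 and 67.5 in knockout ND6 control vector hearts against 30.4 to 46.3 in wild type (0.76 ± 0.17, adjusted p = 0.00549). Hearts 61 and 91, of the same genotype and vector label but outside the comparison, stood at 47.5 and 36.3.

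Nr4a3, the third orphan receptor, did not follow Nr4a1 and Nr4a2. In Ant1 vector hearts it stood at 12.4, 31.8, 25.2 and 18.1 CPM in knockout hearts 20, 21, 22 and 27 and at 10.9, 10.8 and 30.5 in knockout ND6 hearts 5, 8 and 37, against 2.47, 7.53 and 7.11 in wild type. Knockout exceeded wild type 3.73-fold (1.90 ± 0.46, adjusted p = 0.0109), and exceeded its control vector group, at 3.89, 7.47 and 8.83, by 3.24-fold (1.70 ± 0.45, adjusted p = 0.0314). In the latter comparison the call was lost without knockout heart 21 or 22 of the Ant1 vector group or any 1 control vector heart, with adjusted p up to 0.12. Hearts 5 and 8, the highest for Fos and Egr1, were lower in Nr4a3 than knockout hearts 21 and 22 of the same tables, by a log2 difference of -1.38, while heart 37 was higher than knockout heart 27 of its tables, by 0.75.

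Myc, a growth-promoting transcription factor, was at 2.46 to 3.74 CPM in all 7 wild-type hearts, and at 5.52 to 7.93 in the 7 knockout and knockout ND6 hearts given the Ant1 vector. Knockout ND6 exceeded wild type with either vector (0.87 ± 0.20, adjusted p = 0.00609 with the control vector and 1.23 ± 0.22, adjusted p = 0.000642 with the Ant1 vector). Knockout exceeded wild type with the Ant1 vector (1.15 ± 0.21, adjusted p = 0.0014), while knockout control vector hearts stood at 4.74, 3.8 and 2.51 and overlapped wild type.

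Ier3, an inhibitor of cell death signalling, was the member lower than wild type in all 4 comparisons of a knockout genotype with wild type. With the control vector it stood at 44.2, 34.1, 21 and 29 CPM in wild-type, 11.9, 15.7 and 15.7 in knockout and 19, 16.4 and 22.4 in knockout ND6 hearts; only knockout ND6 heart 22 overlapped wild type. With the Ant1 vector it stood at 31.5, 25.8 and 30 in wild-type, 13.7, 17.2, 15.4 and 13.4 in knockout, and 21.6, 16.6 and 12.7 in knockout ND6 hearts, with no overlap. The log2 differences were -1.15 ± 0.20 and -0.74 ± 0.20 with the control vector and -0.96 ± 0.19 and -0.78 ± 0.21 with the Ant1 vector (adjusted p = 0.000471, 0.0161, 0.0029 and 0.012). Heart 35 lay below wild-type hearts 23 to 25 of the same tables by -1.41. The call in knockout ND6 hearts was lost without Ant1 vector heart 37 (adjusted p = 0.0655) and, with the control vector, without knockout ND6 heart 20 or 21 or wild-type heart 23 (0.0578 to 0.0838).

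**Figure D4:**
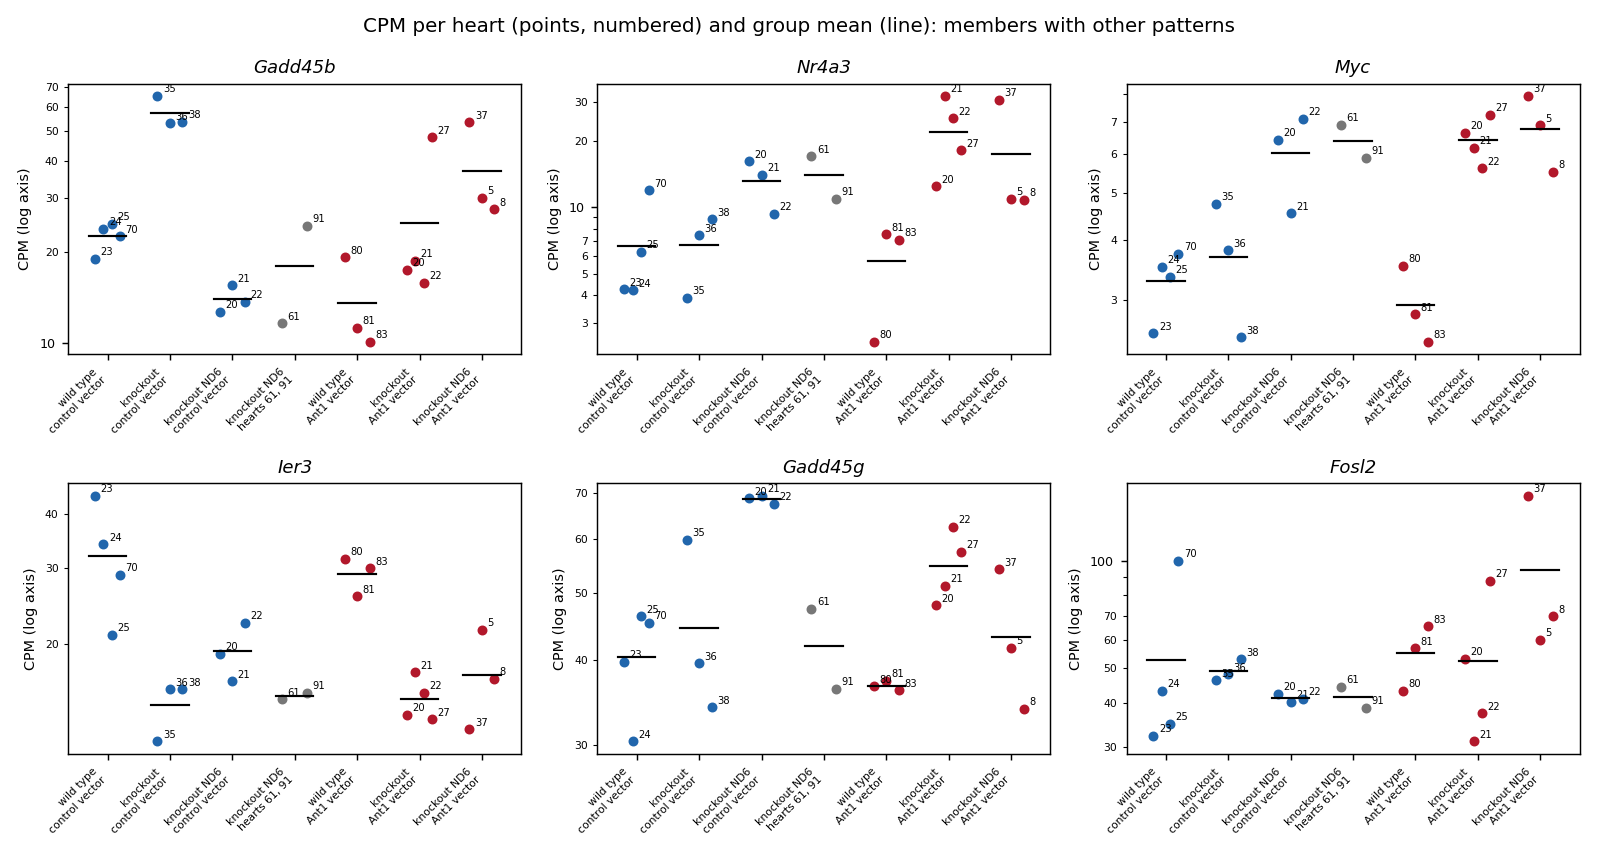
CPM of 6 members whose pattern differs from that of Fos, drawn as in the plot of 6 members above with log axes, 1 point per heart and group means as lines. The group mean of Gadd45b is highest in the knockout control vector hearts, although heart 37 lies within their range. That of Ier3 is lower in every knockout genotype than in wild type, and Fosl2 is highest in hearts 37, 70 and 27.

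In the control vector comparisons knockout differed from wild type in 7 of 35 tested (20%), where 14.4% of all genes passed: Gadd45b was higher, and Ier3, Ier5 (-0.73 ± 0.18), Btg1 (-0.49 ± 0.12), Dusp1 (-0.92 ± 0.24), Maff (-0.91 ± 0.25) and Klf4 (-0.64 ± 0.20) were lower. Knockout ND6 differed from wild type in 6 (17.1%), where 12.7% of all genes passed: Gadd45g, Myc and Jun (0.58 ± 0.18) were higher and Ier3, Dusp1 (-0.82 ± 0.24) and Zfp36 (-0.78 ± 0.25) lower. These shares are near those of all genes. In the fit of single libraries with the library table as a covariate the second count was 21, with 5 higher and 16 lower, and the first 10. Counts of that fit are not comparable with those of summed hearts. Knockout ND6 differed from knockout in 3, where 1.06% of all genes passed: Ier5 (1.02 ± 0.19) and Jun (0.80 ± 0.20) were higher and Gadd45b lower; with the table covariate 14 were called, 6 higher and 8 lower. Dusp1 was at 67 to 114 CPM in wild-type, 40.1 to 50.5 in knockout and 36.5 to 53.2 in knockout ND6 control vector hearts, with no overlap with wild type. Leaving out single hearts moved the first count to 3 at the least (without knockout heart 36), the second to 3 (without any 1 knockout ND6 heart) and the third to 1 (without knockout ND6 heart 22 or knockout heart 38).

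Knockout differed from wild type with the Ant1 vector in 8 of 35 members (22.9%), where 9.89% of all genes passed. Myc, Nr4a3 and Gadd45g (0.58 ± 0.18) were higher, and Ier3, Dusp1 (-1.04 ± 0.24), Rhob (-0.39 ± 0.11), Klf2 (-0.60 ± 0.17) and Jund (-0.88 ± 0.26) lower. Klf2 stood at 144, 121, 159 and 196 CPM in knockout hearts 20, 21, 22 and 27 and at 257, 207 and 238 in wild-type hearts. Junb, Jund, Ier2 and Klf2 lie on chromosome 8, as does Slc25a4. Of these, Jund and Klf2 differed here and none differed between knockout and wild type with the control vector. The result was lost or weaker in 9 of 16 alternative fits for Jund, at 1.03 to 3.18 CPM, and in 6 of 16 for Klf2. Without wild-type heart 80 or 83 the count was 3, without knockout heart 22 it was 4 and without knockout heart 20 it was 5.

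Single hearts differed more than their libraries did. For 27 members averaging at least 5 CPM, the median SD of log2 CPM was 0.22 between libraries of 1 heart and 0.38 between hearts of 1 group, and the second was the larger for 23 of the 27. The widest gaps were those of Nr4a1 (0.15 within, 1.01 between), Egr1 (0.24 and 0.97) and Fos (0.33 and 0.93), while Klf6 (0.14 and 0.15) and Rhob (0.18 and 0.14) varied as little between hearts as between libraries. Wild-type heart 70 was the high heart of its group for Fos, Fosl2 (100 CPM against 32.4 to 43.2), Junb, Nr4a1, Klf4 and Rasd1 (20.3 against 6.46 to 9.99), and its libraries lay in other tables than those of hearts 23 to 25. Hearts 27 and 37, which alone shared their tables, were both high for Fosl2 (87.9 and 152 CPM), Klf10 (78.1 and 69.5), Gadd45b and Nr4a1. Whether the tables have a part in this was not tested.

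Within groups, members were set against Fos by Pearson's r of log2 CPM minus the group mean over 22 hearts. Of 34 relations, 12 had an adjusted p under 0.05 by permutation of hearts within groups (100000 permutations, two-sided, Benjamini-Hochberg over the 34), and 9 by Spearman's rho. Btg2 (r = 0.82, rho = 0.77, permutation p = 0.00044, adjusted p = 0.0131), Zfp36 (r = 0.81, rho = 0.72) and Dusp1 (r = 0.79, rho = 0.68) were nearest to Fos, with Nr4a2, Junb, Dusp6, Klf2, Egr1, Nr4a1, Ier2, Rasd1 and Fosb also past the threshold. Rhob (r = -0.31) and Gadd45g (r = -0.30) were at the other end. Without hearts 70 and 37, the 2 farthest from the median in Fos, 0 relations passed by either coefficient, and median r over the 34 fell from 0.49 to 0.22. The r of Egr1 was then 0.68 and that of Btg2 0.69 (adjusted p = 0.2), while those of Nr4a2 and Fosb were 0.30 and 0.35. Without hearts 27 and 37 instead, 4 relations passed by r and 0 by rho. No relation thus held its call without hearts 70 and 37, although r stayed near its value for Egr1.

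**Figure D5:**
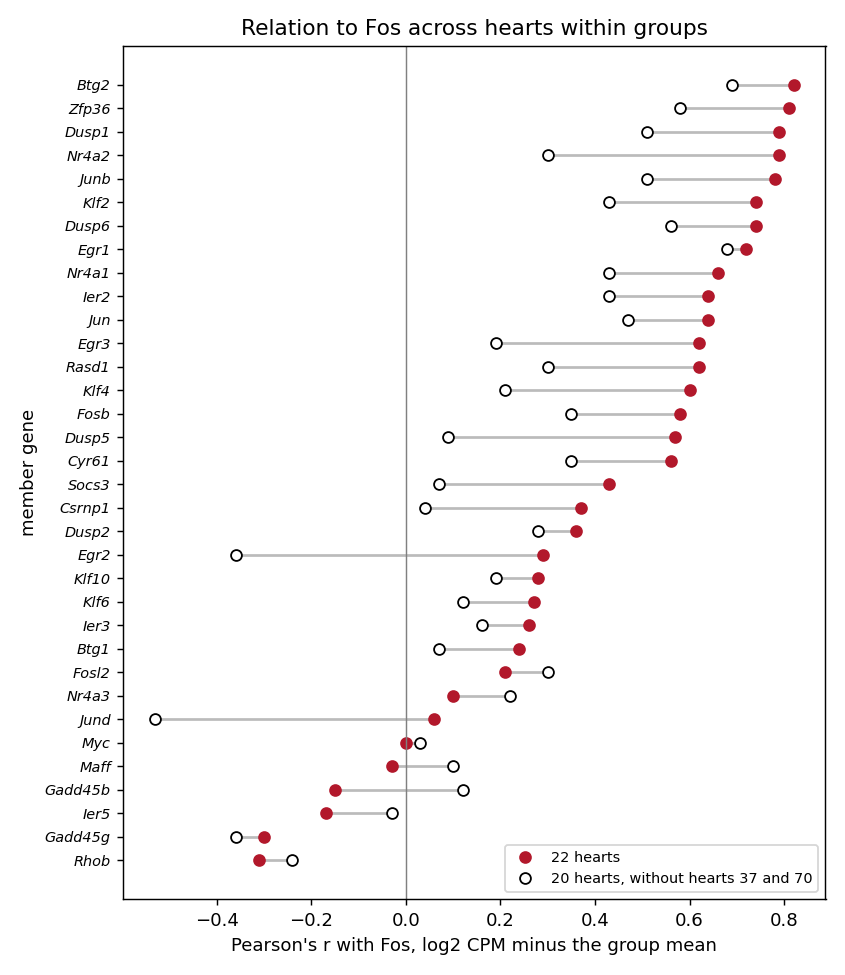
Pearson's r of each member with Fos, from log2 CPM minus the group mean; filled points use 22 hearts and open points the 20 left without hearts 37 and 70. Most filled points lie right of their open partner, and Btg2 and Zfp36 head the order at 0.82 and 0.81.

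Outside the members, the 8 genes with the highest r with Fos by the same measure (at least 5 CPM, 22 hearts, given with no p) were Atad2b (0.82), Nrarp (0.79), Abcb1b (0.77), Parp3 (0.77), Magi3 (0.76), Spty2d1 (0.75), Nfkbiz (0.75) and Polr2a (0.74).

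Other immediate early genes, taken from a separate list of 40 of which 35 were tested, moved with the members in the knockout ND6 Ant1 vector hearts. In the vector comparison 12 rose and 0 fell, where 2.53% of all genes passed. Against knockout 8 were higher and 0 lower (1.66% of all genes), and against wild type 15 were higher and 0 lower (19.5% of all genes). Id1, an inhibitor of differentiation, changed by 0.64 ± 0.09 in the vector comparison (adjusted p = 0.000374), Spry4, a feedback inhibitor of receptor tyrosine kinase signalling, by 0.97 ± 0.13 (adjusted p = 0.000415), and Sgk1, a kinase induced by glucocorticoids, by 1.01 ± 0.15 (adjusted p = 0.000517). Arc, known from neurons, rose 2.98-fold there (1.57 ± 0.31, adjusted p = 0.0101). The median over the 35 was 0.47, against 0.00 over all genes. In the interaction of knockout ND6 with wild type 5 of the 35 passed, where 0.273% of all genes did. Among them was Id1 (1.18 ± 0.12, adjusted p = 2.54e-05 by edgeR). Id1 was itself lower with the Ant1 vector than with the control vector in wild-type hearts, which enters this difference. It also passed, as more positive, in the interaction of knockout with wild type.

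Transcripts of the upstream machinery are given beside the share of all genes that passed, which differed widely between comparisons. Of 15 tested SRF, TCF and CREB regulators, 1 rose and 0 fell in the knockout ND6 vector comparison (2.53% of all genes passed). It was Elk4, a ternary complex factor (0.48 ± 0.13, adjusted p = 0.0481 by edgeR). In the knockout vector comparison Mkl2 rose (0.68 ± 0.15, 5.47% of all genes). Against wild type 1 of these 15 was lower in knockout ND6 hearts with the Ant1 vector (19.5% of all genes). In knockout hearts with the control vector 1 was lower (14.4% of all genes). Of 25 tested members of the MAP kinase cascade, 1 rose (Rps6ka1) and 1 fell (Rps6ka3) in the knockout ND6 vector comparison (2.53% of all genes). In the knockout vector comparison 0 rose and 2 fell (5.47% of all genes passed). Between knockout ND6 and knockout 0 differed with the Ant1 vector (1.66% of all genes) and 1 was lower with the control vector (1.06%). Against wild type, 4 of the 25 were higher and 4 lower in knockout ND6 hearts with the Ant1 vector (19.5% of all genes passed), and 4 higher and 3 lower with the control vector (12.7% of all genes). In knockout hearts 4 were higher and 2 lower with the Ant1 vector (9.89% of all genes), and 4 higher and 0 lower with the control vector (14.4% of all genes). Mknk2, a kinase acting on translation initiation, was higher in all 4 of these comparisons, by 0.56 ± 0.14 to 0.84 ± 0.15. Of 12 tested glucocorticoid response genes, 5 rose and 0 fell in the knockout ND6 vector comparison (Sgk1, Per1, Errfi1, Klf9 and Pdk4; 2.53% of all genes passed), and 6 were lower and 0 higher in knockout ND6 than in wild-type control vector hearts (12.7% of all genes). Per1, a clock gene that also responds to glucocorticoids, changed by 1.27 ± 0.19 in the first and -0.61 ± 0.18 in the second. Sgk1, Per1 and Errfi1 belong to both this list and the list of other immediate early genes. Of 11 tested inflammatory genes, Cxcl1 (1.67 ± 0.32) and Il1b (2.18 ± 0.48) were higher in knockout ND6 than in knockout Ant1 vector hearts (1.66% of all genes passed). Il1b was lower in knockout than in wild-type Ant1 vector hearts. Between knockout ND6 and wild type with the Ant1 vector 0 of the 11 passed, and 0 in the knockout ND6 vector comparison.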

How the data were processed

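The deposited files hold raw read counts per amplicon, which the authors made from targeted transcriptome libraries; the build is mm10, per the submitters' processing notes, and no aligner or counter is named. Of 112 bulk libraries in 14 tables (2893780 to 8531273 counts each), 110 were used. For 2 libraries of heart 80 label and title code disagree, so they entered no group; 3 single-nucleus samples were not analysed here. Libraries sharing number, genotype and code in their titles were summed as 1 heart (22 hearts, 7 groups). No label states that a number is a heart, so if it is not, p values measure only the spread between these samples.

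All groups shared a single edgeR 4.0.16 model (R 4.3.3): low counts removed by filterByExpr, TMM factors, no covariate, and the quasi-likelihood test with Benjamini-Hochberg adjustment over 15403 genes at 0.05. Log2 CPM used a prior count of 2. The fit was checked on simulated counts. Alternatives were DESeq2 1.42.0, other size factors, no filter, other sets of libraries or hearts, both readings of hearts 61 and 91, and limma 3.58.1 voom on single libraries with the library table as covariate. The voom fit used a within-heart correlation of 0.176 for all genes, and the vector comparisons cannot be estimated in it.

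Named by rule were all members, with levels by heart for Fos, Jun, Egr1, Junb, Jund, Ier2 and Klf2 and for up to 14 members at 5 CPM or more in a group with the smallest adjusted p under 0.05, several of them given as ranges outside the hearts that differ; up to 3 genes per other list; and the 8 genes nearest to Fos. Levels by heart of Nr4a1, Nr4a3, Gadd45b and Gadd45g, the marker genes named, and the genes Arc, Rps6ka1, Rps6ka3, Klf9 and Pdk4, were added after their values were seen. Members, lists and tests were chosen with earlier results of these data known.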

Additional observations from a re-analysis of the deposited data

Results flagged for a closer look

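Among the groups of 4 hearts, 1 heart stood far from the other 3 in 8 of 54 member and group combinations. Chance alone gives about 1 in 20 for a single combination. The combinations share the same hearts and are not independent, so the count of 8 does not measure an excess over chance. In the wild-type control vector group heart 70 stood apart for Fos (12.6 CPM, others 1.97 to 2.73), Fosl2 (100, others 32.4 to 43.2), Junb (47.9, others 27.4 to 30) and Nr4a1 (146, others 11.3 to 29.4), and heart 23 for Btg1 (42.3, others 34.5 to 35.3). In the knockout Ant1 vector group heart 27 stood apart for Nr4a1 (129, others 19.3 to 23.9), Gadd45b (47.7, others 15.8 to 18.7) and, on the low side, Cyr61 (56.1, others 76.4 to 79.3). Heart 70 and heart 27 each had their libraries in other tables than the rest of their group, and the part of the tables was not tested.

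The vector change differed between knockout ND6 and wild-type hearts for 7 members by the interaction test, with differences of log2 changes of 1.92 for Csrnp1, 2.24 for Zfp36, 1.42 for Cyr61, 2.52 for Rasd1, 1.70 for Dusp1, 1.37 for Klf4 and 2.16 for Btg2. In all 7 the mean of the 3 knockout ND6 Ant1 vector hearts includes heart 8, whose Slc25a4 level goes against its label.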

How the results depend on the processing

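Member counts under other settings are given against 7, 6, 3, 8, 24, 19, 0, 3, 20, 0 and 7 called members in the following order: knockout and knockout ND6 against wild type and knockout ND6 against knockout with the control vector, knockout and knockout ND6 against wild type and knockout ND6 against knockout with the Ant1 vector, the vectors in wild-type, knockout and knockout ND6 hearts, and the interactions of knockout and of knockout ND6 with wild type. Leaving out single hearts gave 3 to 8, 3 to 8, 1 to 3, 3 to 7, 19 to 23, 13 to 23, 0 to 0, 0 to 5, 13 to 20, 0 to 0 and 1 to 15. With the table covariate, fitted to single libraries, the second count was 21, the third 14, the fourth 13 and the interactions 4 and 20. These are not comparable with counts from summed hearts. DESeq2 gave 5 for knockout ND6 against knockout with the control vector, 5 for the vectors in knockout hearts, and 1 and 12 for the interactions. Hearts 61 and 91 as control vector hearts gave 11 and 5 for knockout ND6 against wild type and knockout with the control vector. As Ant1 vector hearts they gave 14 and 4 for the same comparisons with the Ant1 vector, 0 for the vectors in knockout ND6 hearts and 0 for the interaction. Hearts 5 and 8 left out, added after seeing the data, gave 11, 2, 12 and 4 for these 4. Hearts 27 and 37 left out gave 1 for the vectors in wild-type hearts, 8 in knockout hearts and 18 for the knockout ND6 interaction. For that interaction raw totals gave 3, libraries a and b only 2, heart 8 left out 2 and only the compared groups 4. Only the compared groups also gave 10 for knockout ND6 against knockout with the control vector and 11 with the Ant1 vector, and libraries a and b only 4 for knockout against wild type with the Ant1 vector. The cause was not tested beyond the hearts each setting removes or adds. Relations with Fos past the threshold were 12, 4 without hearts 27 and 37 and 0 without hearts 70 and 37. Of 97 called pairs of member and comparison, 11 kept their call under every alternative run, and 6 values reversed, all without hearts 5 and 8: Egr1 (-0.11 against wild type, -0.29 between vectors), Ier2 (-0.77 against wild type, -0.25 against knockout, -0.63 between vectors) and Dusp1 (-0.01 against wild type). No paired analysis was possible because title numbers name different hearts in different groups. Fosb, Fosl1, Jund, Egr2, Nr4a2, Dusp2, Ier5 and Socs3, each under 5 CPM on average, rest on few reads per library.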

Other observations

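Of 8 tested inducible heat shock genes, Hspa1b and Hspa1a, which encode the stress-inducible 70 kDa chaperone, were higher in knockout ND6 than in knockout control vector hearts (log2 differences 2.66 ± 0.35 and 2.49 ± 0.45) and lower with the Ant1 vector than with the control vector in knockout ND6 hearts (-3.04 ± 0.36 and -2.48 ± 0.45, adjusted p = 0.000164 and 0.00489 by edgeR). They thus changed in the direction opposite to the immediate early genes between the vectors. Of 15 tested hypoxia response genes, Egln3, an oxygen-sensing hydroxylase, was lower than wild type in both knockout genotypes with either vector, by -2.49 to -2.74.

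The libraries of heart 80 that entered no group stood at 3.6 and 3.47 CPM for Fos (80a and 80b), 27.8 and 25.8 for Egr1, 31 and 23.3 for Nr4a1 and 31.3 and 37 for Ier3. The libraries 80c and 80d of the same title number stood at 5.54 and 3.52, 30 and 32.2, 30.7 and 31.9, and 31.1 and 32.5.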
